A study of Rattus norvegicus with 12 samples.

Results

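The members described here are the MAP kinases, the kinases above and below them, their scaffolds, and the dual specificity and tyrosine phosphatases of the rat. They were taken by name: every probe set whose only gene symbol begins with Mapk, Map2k, Map3k, Map4k, Dusp and a digit, Ptpn and a digit, or Ptpr and a letter. The rule used no measured value and found 103 of 8740 probe sets, for 56 of the 4736 genes that the array names. Of these, 82 probe sets for 47 genes were bright enough to be tested.

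The cells were CC531, a rat colon carcinoma line, and each of 12 expression arrays measured total RNA of 1 sample. Cells had been given 4.5 mM butyrate for 2, 6, 12, 16 or 24 h, or 3 mM aspirin for the same times, or had been left untreated for 2 or 24 h. That gave 5 butyrate, 5 aspirin and 2 untreated arrays. No time was repeated, and each drug was given at a single dose. Butyrate is a short-chain fatty acid made by gut bacteria that inhibits histone deacetylases, and aspirin inhibits the cyclooxygenases.

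MAP kinases are the last step of a relay of kinases. A MAP4K or a small GTPase activates a MAP3K, which phosphorylates a MAP2K, which phosphorylates the MAP kinase on a threonine and a tyrosine, and the MAP kinase then acts on transcription factors and on kinases such as MAPKAPK2. Dual specificity phosphatases (DUSP) remove those phosphates from the MAP kinase itself, while the non-receptor (PTPN) and receptor (PTPR) tyrosine phosphatases act on the receptors and adaptors above and, in a few cases, on the MAP kinases. In colon epithelium the relay carries growth factor and stress signals. Arrays measure the RNA of these genes and not the activity of the proteins.

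Values are deposited intensities on a linear scale, given as in the table, negative ones included. For tests, values under a floor of 90.91 (log2 6.51) were raised to it, and changes are differences of log2 values with their standard error. A change was called at an adjusted p of 0.05 or less, from limma with Benjamini-Hochberg adjustment over the 6118 probe sets tested. The labels do not say whether arrays came from separate cultures. The p-values therefore measure no more than the spread among these 12 arrays, which may be technical and which, in comparisons with untreated cells, also holds changes over the hours. Every array had been scaled to the same mean, 1000 after removal of 2% of values at each end, and between 13.4 and 21.1% of tested values on an array were at the floor. The untreated arrays at 24 and 2 h differed at least 2-fold at 16.5% of all tested probe sets and at 15 of the 82 members. The epithelial keratins Krt8, Krt18 and Krt19 and the epithelial adhesion gene Epcam were bright on every array (mean log2 13.26 to 14.05), whereas Krt20, which marks differentiated intestinal cells, was at the floor on 6 of 12 arrays.

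Sequences just upstream of 3 genes that the results turn on follow, 250 bases before to 50 bases after the annotated start, from RefSeq on GRCr8. Ptpn1 is at chr3:177057483-177057782 on the plus strand, Map4k1 at chr1:93398319-93398618 on the plus strand and Mapkapk3 at chr8:116842179-116842478 on the minus strand. Ptpn1 is shown because it was called against untreated cells on most probe sets, and the other two because their slopes over the hours differed between the drugs. Capitals mark GC boxes, GGGCGG on either strand.
Ptpn1: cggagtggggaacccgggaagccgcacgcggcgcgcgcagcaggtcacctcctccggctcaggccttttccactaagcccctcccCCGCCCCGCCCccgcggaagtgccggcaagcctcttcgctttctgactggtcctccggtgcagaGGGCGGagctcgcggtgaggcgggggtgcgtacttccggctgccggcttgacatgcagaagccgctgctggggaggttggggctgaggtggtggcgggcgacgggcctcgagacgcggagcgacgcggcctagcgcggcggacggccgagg
Map4k1: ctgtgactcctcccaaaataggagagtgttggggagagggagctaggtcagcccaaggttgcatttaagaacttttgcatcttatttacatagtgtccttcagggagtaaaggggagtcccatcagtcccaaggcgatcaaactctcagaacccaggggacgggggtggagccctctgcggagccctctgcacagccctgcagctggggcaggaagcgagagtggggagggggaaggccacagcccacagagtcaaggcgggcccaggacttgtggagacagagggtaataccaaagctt
Mapkapk3: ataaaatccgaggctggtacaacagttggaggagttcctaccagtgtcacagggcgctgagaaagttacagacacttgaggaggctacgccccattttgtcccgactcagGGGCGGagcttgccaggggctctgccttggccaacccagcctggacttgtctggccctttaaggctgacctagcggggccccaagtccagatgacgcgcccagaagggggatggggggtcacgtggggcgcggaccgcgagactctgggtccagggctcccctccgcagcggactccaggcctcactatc
The Ptpn1 window holds 3 GC boxes, the Mapkapk3 window 1 and the Map4k1 window 0, and their shares of G and C are 73.3, 62.7 and 57%. A GC box stands in 37 of the 51 member windows found (50 genes matched), or 72.5%, beside 55.7% of the 4191 windows of genes on the array and 33.1% of all 33469. The cyclic AMP response element TGACGTCA was in 5.88% of member windows and 2.43% of windows of genes on the array, and the AP-1 site TGANTCA in 1.96 and 5.89%, both strands read. These shares are descriptions of the windows and say nothing about binding.

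The comparison of butyrate with untreated cells asked which members the fatty acid changed over its 5 times. Ptpn1, the tyrosine phosphatase PTP1B that dephosphorylates the insulin receptor, rose on 4 of its 5 probe sets, and Mapk14, the stress-activated kinase p38 alpha, rose on 1 of 6. No other member passed the test, so 5 of 82 probe sets (2 genes) rose and 0 fell, where 7.78% of all tested probe sets rose and 3.92% fell. The median change of members was 0.22, beside 0.00 for all probe sets. An unadjusted p below 0.05 in limma was seen at 21 of the 82 members, beside 1763 of all 6118 probe sets. All butyrate arrays lay above both untreated arrays at 12 members (9 genes), where 14.7% of all probe sets did, and below both at 5 members, where 13.2% did. These shares are the background for the counts, which are not by themselves a result about the members.

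**Figure D1:**
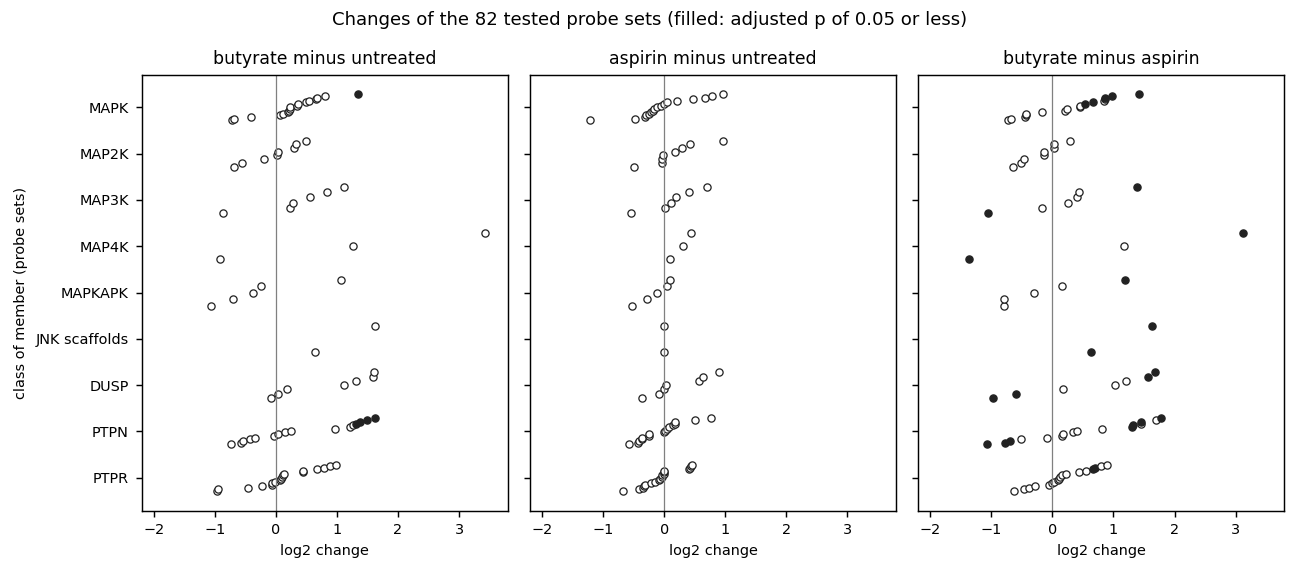
Log2 change (horizontal axis) of each of the 82 tested probe sets, by class of member (vertical axis), for butyrate minus untreated, aspirin minus untreated and butyrate minus aspirin; filled points are called at an adjusted p of 0.05 or less. The 5 filled points of the first panel are 4 probe sets of Ptpn1 and 1 of Mapk14, the second panel has 0, and the third has 25.

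Aspirin against untreated cells gave 0 calls among the members in limma. An unadjusted p below 0.05 was seen at 3 of the 82 members, beside 656 of all 6118 probe sets. Over all probe sets it also called few, 0.0817% higher and 0.0654% lower. The member median was −0.00, beside −0.04 for all. All aspirin arrays lay above both untreated arrays at 3 members, namely one probe set each of Dusp6, Map4k4 and Ptpn18 (3.81% of all probe sets), and below both at 1, Ptpn7 (7.78% of all). Both comparisons share the untreated arrays.

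Butyrate against aspirin, paired by hour on the 10 treated arrays, separated more members. Of the 82, 18 probe sets (11 genes) were higher with butyrate and 7 (6 genes) were lower, where 15.6 and 9.61% of all probe sets were. The median difference was 0.19 among members and 0.10 over all. Butyrate lay above aspirin at each of the 5 times at 20 members (12 genes), where 19.9% of all did, and below it at 9 (7 genes), where 13.0% did. Calls with higher values were spread over Ptpn1, Mapk14, Mapk9, Mapkapk2, Map3k3, Map4k1, Mapk8ip1, Mapk8ip2, Dusp1, Dusp5 and Ptpra, and calls with lower values over Dusp6, Map3k12, Map4k4, Ptpn2, Ptpn3 and Ptpn21. Of the 18 higher probe sets, those of Mapk8ip1 and Mapk8ip2 passed the filter through the butyrate arrays alone, so that their calls add nothing, and 16 are left without them. Of the 25 calls, 4 were kept whichever array was left out and 8 under all the other settings tried, as each fit without an array rests on 4 of the 5 times. The 4 were those of Map3k12 and of 3 probe sets of Ptpn1.

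Slopes over the hours, in log2 per doubling of time, were also fitted to the treated arrays. With butyrate 6 members rose over time and 5 fell, where 4.79 and 4.20% of all probe sets did, and of the 6, Ptprr passed the filter through the butyrate arrays alone. With aspirin 6 rose and 1 fell, where 1.32 and 0.327% did. The slopes differed between the drugs at 6 members, 1 with a higher and 5 with a lower slope with butyrate, where 0.686 and 1.05% of all did. These 6 probe sets stand for 3 genes, Map4k1, Mapkapk3 and Mapk12, and 4 of them are of Mapkapk3.

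**Figure D2:**
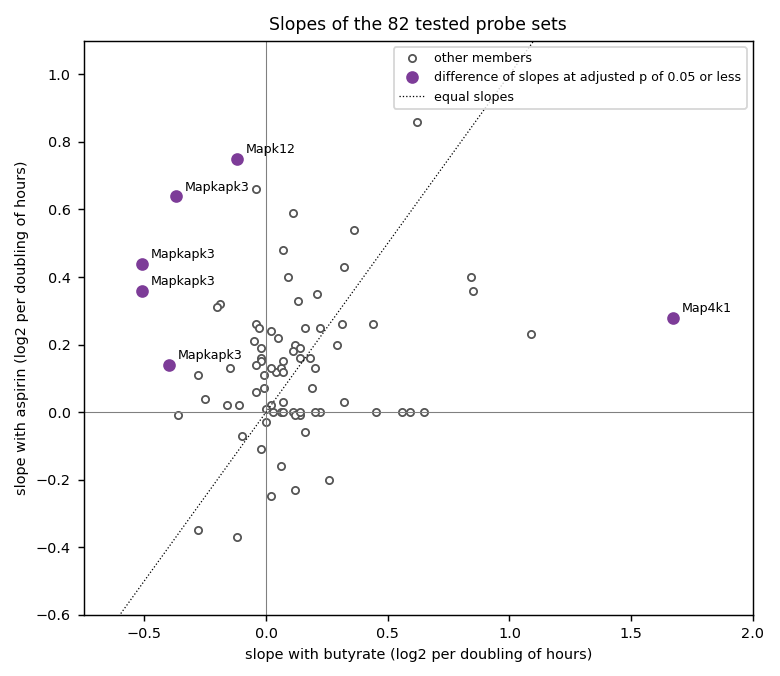
Slope with butyrate (horizontal axis) against slope with aspirin (vertical axis) for the 82 tested probe sets, both in log2 per doubling of hours, with a dotted line of equal slopes; filled points are those whose slopes differed at an adjusted p of 0.05 or less. The 4 probe sets of Mapkapk3 and 1 of Mapk12 lie to the left of 0 and 1 of Map4k1 lies far to the right, at a butyrate slope of 1.67.

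At the top of the relay stand the MAP4Ks. Map4k1, or HPK1, is a kinase best known from blood cells, where it acts above JNK. Its probe set rc_AA891302_g_at read 56, 357.3, 2172.1, 2685.1 and 4806.9 with butyrate at 2, 6, 12, 16 and 24 h, and −30.1, 26.2, 41.8, 71.3 and 263.4 with aspirin at those times, against −38.5 and 24.4 in untreated cells at 2 and 24 h. The butyrate series climbed at each time, while 4 aspirin arrays and both untreated arrays were at the floor. Its slope with butyrate was 1.67 ± 0.18 (adjusted p = 0.0022, limma) and that with aspirin 0.28 ± 0.18 (0.433), and the difference of 1.39 ± 0.25 was called (0.0428). Because the 2 h butyrate array was at the floor, the butyrate slope is understated.

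A second Map4k1 probe set of the same target, rc_AA891302_at, read 134.3, 259.8, 911.3, 1231.7 and 1718.1 with butyrate and 216.9, 186, 235.9, 318.9 and 381 with aspirin, against 253.6 and 233.9 in untreated cells. At 2 h the butyrate array was below the untreated ones, and from 6 h it was above both. The butyrate slope was 1.09 ± 0.12 (limma adjusted p = 0.00298), which was the only slope of a member called whichever array was left out and under all other settings. The other probe set lost its slope call without the butyrate 2 h array (0.0653). Over the 5 times together Map4k1 did not pass the test against untreated cells (3.43 ± 1.14, adjusted p = 0.0656, and 1.26 ± 0.77, 0.309), and against aspirin it passed on rc_AA891302_g_at (3.13 ± 0.77, 0.0336), a call lost in 8 of 10 fits that left out an array (p up to 0.121). The difference of slopes was lost in 9 of 10 such fits (p up to 0.253). With 2 times the floor neither was called (0.136 and 0.0683).

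Blood and immune markers were set beside Map4k1. Of 12 listed, 8 were on the array, Cd8a was at the floor on all arrays and Cd3g on 8 of 12. Their summed intensity was 1976 to 2566 on the butyrate arrays and 2302 to 5288 on the aspirin arrays, against 2637 to 3440 on the untreated ones. The brightest, Cd14, a receptor of monocytes for bacterial lipopolysaccharide, read 1530.7, 968.2, 952.3, 736.5 and 867.8 with butyrate and 1570.8, 1630.8, 2212.3, 3232.1 and 4475.1 with aspirin, against 1860.1 and 2371.2 in untreated cells. It was lower with butyrate than with aspirin at each hour, with a difference of −1.30 ± 0.36 (limma adjusted p = 0.0458), and the change against untreated cells of −1.10 ± 0.38 was not called (0.0781). Spn, the leukocyte surface protein CD43, went the other way, with 3.9, 237, 673.9, 862.8 and 598.1 with butyrate and at most 27 on every other array, and since it passed the filter through the butyrate arrays alone no test of it is given. Their part in the result was not tested, and in bulk RNA fewer cells of a type and less RNA per cell cannot be told apart.

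Map4k4, a kinase of the Ste20 family that acts above JNK, read 76.9, 45.9, 42.4, 75.9 and 143.2 with butyrate and 386.6, 247.1, 203.1, 279 and 201.9 with aspirin, against 198.9 and 178.4 in untreated cells. All butyrate arrays lay below both untreated arrays and all aspirin arrays above them. Against aspirin the log2 difference was −1.36 ± 0.24 (limma adjusted p = 0.0149), with 4 of 5 butyrate arrays set at the floor. Against untreated cells the change of −0.92 ± 0.30 was not called (0.0591). The call against aspirin was lost without any of the 6, 12 or 16 h arrays (p up to 0.0686) and with 2 times the floor (−0.49, 0.146).

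**Figure D3:**
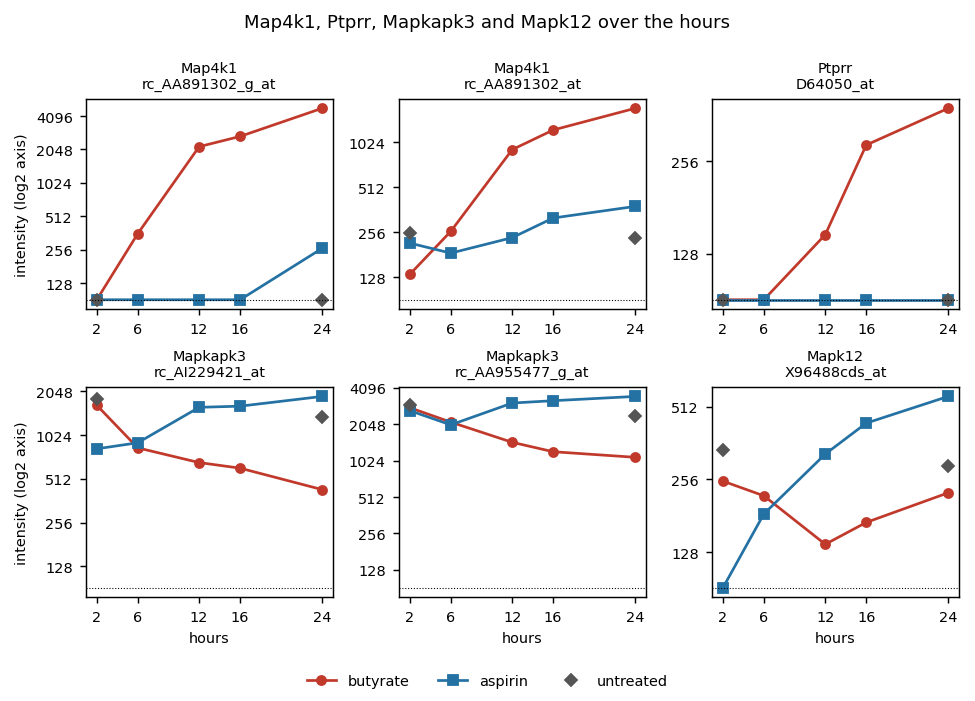
Intensity (vertical axes, log2 scale, values under the dotted floor drawn on it) against hours (horizontal axes) for 6 probe sets of Map4k1, Ptprr, Mapkapk3 and Mapk12, with 1 point per array for butyrate, aspirin and untreated cells. Map4k1 and Ptprr climb with butyrate to 4806.9 and 380.2 at 24 h, Mapkapk3 declines with butyrate, and Mapk12 climbs with aspirin to 565.3.

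Among the MAP3Ks, Map3k12, the leucine zipper kinase DLK known from stressed neurons, declined over the hours with both drugs. It read 3153, 1979.7, 1917.3, 1899.4 and 1421.5 with butyrate and 6885.2, 5206.7, 3630.7, 2818.7 and 3375.5 with aspirin, against 2696.5 and 4926.9 in untreated cells. The slopes were −0.28 ± 0.06 with butyrate (limma adjusted p = 0.0353) and −0.35 ± 0.06 with aspirin (0.0428). At each hour the butyrate array was the lower one, and the difference of −1.05 ± 0.14 was called (0.00795), whichever array was left out and under every other setting (−1.17 to −0.97 without an array). Both slope calls were lost in several such fits, 6 of 10 with butyrate (p up to 0.538, without the butyrate 2 h array) and 9 of 10 with aspirin (p up to 0.194). Against untreated cells neither drug passed the test, and the butyrate 2 h value lay between the untreated ones.

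Map3k3, or MEKK3, a kinase above the ERK5 arm, read 415.3, 494.9, 469.9, 476.3 and 385.5 with butyrate and 148, 153.5, 204.8, 156.6 and 198.5 with aspirin, against 593.2 and 104.5 in untreated cells. The treated groups did not overlap, and the untreated arrays lay outside both, one above and one below. Butyrate exceeded aspirin by 1.39 ± 0.19 (limma adjusted p = 0.00851), which was lost without the aspirin 16 h array alone (0.0509). Map3k1, the JNK pathway kinase MEKK1, was not called on any of its 3 probe sets. Its changes with butyrate against untreated cells were 0.56 and 0.28 and, where both untreated arrays were at the floor, at least 1.11. Map3k9 was near the floor and not called, and Map3k8, the kinase Tpl2, was below the filter.

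Of the MAP2Ks, which activate the MAP kinases directly, Map2k5 alone was called in a fit. Map2k1, or MEK1, read 6477.6, 6216, 5643.3, 5392.3 and 4855.9 with butyrate and 6853.4, 3798, 4839.3, 6131.2 and 6923.6 with aspirin on its brightest probe set, against 6806.8 and 4712.7 in untreated cells. The 3 groups overlapped, and none of its 3 probe sets was called in any fit. Nor was any of the 3 probe sets of Map2k2, or MEK2, whose brightest read between 2606.1 and 3116.9 with butyrate and between 2565.1 and 3747.6 with aspirin, against 2496.5 and 3068.3 in untreated cells. Its probe set L14936_at ranged more widely, from 645.2 to 1559.1 with butyrate and from 556.3 to 1431.9 with aspirin, against 347.7 and 979.6 in untreated cells. Map2k6, a kinase of p38, was below the filter.

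Map2k5, or MEK5, the kinase of ERK5, was called on 1 of its 2 probe sets. U37464_s_at read 1570.2, 767.8, 677.9, 702.9 and 630.1 with butyrate and 1463.5, 975.5, 1357.2, 1326.8 and 1293.9 with aspirin, against 1439.3 and 1181.8 in untreated cells. The butyrate array at 2 h was the highest of all 12 and those from 6 h on were the lowest. Its butyrate slope was −0.36 ± 0.09 (limma adjusted p = 0.0422) and rested on the butyrate 2 h array, without which the p was 0.82. It was lost in 7 of 10 such fits. The other probe set, U37462_s_at, had the same pattern (656.6 at 2 h, then 317.3 to 334.2) and a slope of −0.28 ± 0.11 that was not called (0.178).

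Among the MAP kinases, Mapk14 was higher with butyrate than with aspirin on 4 of its 6 probe sets. On rc_AI171630_s_at it read 1527.7, 2065.3, 2312.5, 1821.8 and 1270.9 with butyrate and 1244.1, 776.8, 1151, 975.6 and 797.7 with aspirin, against 910.3 and 532.8 in untreated cells. All butyrate arrays were above both untreated arrays and above all aspirin arrays. The rise over untreated cells was 1.34 ± 0.30, or 2.53-fold (limma adjusted p = 0.015), and it was not called without the untreated 24 h array (0.95, 0.13).

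The other 5 probe sets of Mapk14 did not pass the test against untreated cells, with changes of 0.22 to 0.67. On U91847_s_at the untreated arrays read 726.2 and 196.3, so that the butyrate arrays, 467.8, 394.1, 429.6, 376 and 546.5, lay between them, while the aspirin arrays read 72.8, 191.9, 276.5, 148 and 164.7. Butyrate exceeded aspirin by 1.42 ± 0.28 (0.0205) on U91847_s_at, 0.97 ± 0.21 (0.0231) on rc_AA924542_s_at, 0.86 ± 0.18 (0.0224) on rc_AI171630_s_at and 0.54 ± 0.12 (0.027) on rc_AI137862_s_at, by limma's adjusted p. On these 4 the butyrate and aspirin arrays did not overlap. Each call was lost in 7 or 8 of 10 fits that left out an array (p up to 0.093). Each was also lost under 2 or 3 of 7 other settings (limma adjusted p up to 0.25, on rc_AI137862_s_at with median centring). The 2 probe sets not called, U73142_at and U73142_g_at, differed in the same direction by 0.84 (0.0837) and 0.45 (0.083).

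Mapk12, or p38 gamma, a p38 kinase known from muscle, climbed with aspirin on both probe sets. X96488cds_at read 251.9, 218.9, 137.8, 169.8 and 225.2 with butyrate and 55, 184.1, 326.1, 438.1 and 565.3 with aspirin, against 338.6 and 291.9 in untreated cells. Aspirin was the lowest of all at 2 h and above both untreated arrays from 16 h. The slopes were −0.12 ± 0.10 with butyrate (limma adjusted p = 0.528) and 0.75 ± 0.10 with aspirin (0.02), and their difference of −0.87 ± 0.14 was called (0.032).

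The second Mapk12 probe set, rc_AA849716_at, read 236.7, 155.2, 153.3, 156.7 and 251.1 with butyrate and 125.1, 199.9, 374.5, 463.8 and 617 with aspirin, against 133.9 and 238.3 in untreated cells. It also climbed with aspirin at each time, with a slope of 0.66 ± 0.11 (limma adjusted p = 0.0353), while the difference from the butyrate slope, −0.70 ± 0.16, was not called (0.0786). No call of Mapk12 survived every removal of an array. The slopes with aspirin were lost in 5 and 7 of 10 fits (p of 0.1 and 0.121 without the aspirin 2 h array), and the difference on X96488cds_at was lost in 7 of 10 fits (p up to 0.203). With 2 times the floor the slopes (0.0975 and 0.0936) and the difference (0.142) were not called.

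Mapk9, the kinase JNK2, had 3 probe sets with unlike results. L27112_s_at read 26.6, 184, 162.2, 134.2 and 172.1 with butyrate and was at the floor on every aspirin array. Untreated cells read 137.3 at 2 h, among the butyrate values, and 22.1 at 24 h. Its call against aspirin (limma adjusted p = 0.0343) had a size that the floor sets, 0.67 ± 0.17 here, 0.00 with 2 times the floor (0.699) and 1.27 with a floor of 45.455 (0.0269), so no size is read from it. On rc_AI231354_at the aspirin arrays climbed (119.4, 183.8, 371, 326.5 and 521.4) with a slope of 0.59 ± 0.11 (limma adjusted p = 0.0496). They began below the untreated arrays, which read 386 and 286.4. The brightest, rc_AI231354_g_at, was called in no fit. Its butyrate arrays read 836.2, 1814.6, 1760.7, 1364.9 and 959.3, highest in the middle of the series, with 520.6 to 1467.4 with aspirin, against 909.8 and 734.6 in untreated cells. The first of these calls was lost in 8 of 10 fits that left out an array (p up to 0.116) and the second in 9 of 10 (p up to 0.155).

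Other MAP kinases gave a single call. Mapk4, an atypical MAP kinase, had a butyrate slope of 0.44 ± 0.11 (limma adjusted p = 0.0496) that rested on the 2 h array, the lowest of the series at 102.6, and was not called without it (0.809). The call was lost in 9 of 10 such fits. Mapk6, the atypical kinase ERK3, was below aspirin with butyrate at each hour on both probe sets, by −0.67 ± 0.20 (0.0586) and −0.45 ± 0.18 (0.119), without a call. Its untreated arrays, 4700.4 and 2497.7 on the brighter probe set, lay apart from each other. Mapk8, or JNK1, was at the floor on 11 of 12 arrays, and neither it nor Mapk7, or ERK5, was called. Mapk3 and Mapk10 had no probe set that named them alone and are not analysed here.

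Of the kinases that MAP kinases activate, Mapkapk3, a target of p38, had slopes that differed between the drugs on 4 of 4 probe sets. On rc_AI229421_at it read 1641.9, 835.8, 661.9, 605.8 and 431.6 with butyrate and 823.2, 905.8, 1588.8, 1618.1 and 1887.9 with aspirin, against 1812.2 and 1357.1 in untreated cells. Butyrate declined at every time and aspirin climbed at every time, and the 2 series crossed between 2 and 6 h. The slopes were −0.51 ± 0.07 with butyrate (limma adjusted p = 0.00549) and 0.36 ± 0.07 with aspirin (0.0457), with a difference of −0.87 ± 0.10 (0.014). The aspirin slope was lost in 9 of 10 fits that left out an array (limma adjusted p up to 0.127) and under 5 of 7 other settings.

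On rc_AA955477_g_at, the brightest, it read 2804.4, 2131.4, 1451.4, 1213.3 and 1091.2 with butyrate and 2650.9, 2022.9, 3065, 3204.2 and 3475.4 with aspirin, against 2926.6 and 2413.5 in untreated cells. All butyrate arrays from 6 h on lay below both untreated arrays. The butyrate slope there was −0.40 ± 0.07 (0.015), the aspirin slope 0.14 ± 0.07 was not called (0.328), and the difference was −0.54 ± 0.10 (0.0453), by limma's adjusted p.

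On rc_AA955477_at the butyrate series read 997.4, 549.2, 378.2, 353.4 and 276.3 and the aspirin series 326, 370.2, 787, 608.9 and 993, against 653 and 457.3 in untreated cells, and the slopes differed by −0.96 ± 0.13 (limma adjusted p = 0.0227). On rc_AI011376_at the butyrate series read 2260.1, 1685.1, 877.2, 1165.8 and 945.5 and the aspirin series 522.4, 659, 1705.1, 1482.6 and 2454, against 2153.3 and 1299.6, and the slopes differed by −1.01 ± 0.15 (0.0252). At 2 h butyrate was above aspirin on all 4 probe sets, and at 24 h below it on all 4. Of the 4, rc_AA955477_at and rc_AA955477_g_at carry the same target name and are not separate targets. Averaged over the 5 times no probe set of Mapkapk3 was called in any comparison of treatments. No call of the slope difference survived every removal of an array. It was lost in 3 of 10 such fits on rc_AI229421_at (p up to 0.0885, without the butyrate 2 h array) and in 5 to 8 of 10 on the other 3 (p up to 0.147). Of 7 other settings, 4 lost it on rc_AA955477_g_at, 2 on rc_AI011376_at and 0 on the other probe sets. Without the butyrate 2 h array the butyrate slopes were not called (p of 0.148 to 0.306).

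Mapkapk2, the closest relative of Mapkapk3 and also a p38 target, read 980, 1053.7, 823.9, 715 and 803.1 with butyrate and 736.2, 427.5, 269.6, 256.9 and 367.8 with aspirin, against 697.8 and 245.4 in untreated cells. All butyrate arrays lay above both untreated arrays. The excess of butyrate over aspirin was 1.19 ± 0.22 (limma adjusted p = 0.017), a call lost in 8 of 10 fits without an array (p up to 0.0718). Against untreated cells the change of 1.07 ± 0.45 was not called (0.133).

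The JNK scaffolds Mapk8ip1 and Mapk8ip2, which hold the JNK relay together and are known from neurons and endocrine cells, were at the floor on every aspirin and untreated array. With butyrate Mapk8ip1 read −120.8, 196.2, 695.2, 497.4 and 287.4, and Mapk8ip2 read −90.3, 179.8, 121.7, 156.5 and 182. Both were at the floor at 2 h and above it from 6 h. Both passed the filter through the butyrate arrays alone, so that a difference was built into their selection, and its log2 size is set by the floor, so no test of them is given.

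Neural and endocrine markers were set beside these scaffolds. Of 12 listed, 10 were on the array, and Chgb, Nefl, Nefm and Mbp were at the floor on all arrays. Their summed intensity was 766 to 2737 on butyrate arrays and 685 to 1433 on aspirin arrays, against 1255 to 1513 on untreated ones. Map2, a neuronal microtubule protein, read 123.9, 429.9, 1035.6, 867.6 and 1032.9 with butyrate and 79.5 to 225 with aspirin, against 181.1 and 91.6 in untreated cells. It had a butyrate slope of 0.90 ± 0.13 (limma adjusted p = 0.00759). The synaptic vesicle gene Syp, which passed the filter through the butyrate arrays alone, read −17.9, 50, 128.3, 141.7 and 270.6 with butyrate and was at the floor on every other array. Gap43 went the other way and passed the filter through the untreated arrays alone. Of the 6 markers tested, 0 were called with butyrate against untreated cells (median 0.24). The part of these markers in the result was not tested.

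Among the dual specificity phosphatases, Dusp6, which is selective for ERK and is itself switched on by ERK signalling, was lower with butyrate than with aspirin on both probe sets. U42627_at read 3337, 4360.6, 4468, 6319.3 and 7613.7 with butyrate and 5312.5, 6141.8, 9274.5, 8361.2 and 9716.4 with aspirin, against 4602.4 and 5111.2 in untreated cells. Every aspirin array was above both untreated arrays, and the butyrate arrays ran from below them to above them. Butyrate fell short of aspirin by −0.59 ± 0.12 (limma adjusted p = 0.0206), and the slopes were 0.31 ± 0.06 with butyrate (0.0206) and 0.26 ± 0.06 with aspirin (0.0667).

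X94185cds_s_at of Dusp6 read 1675.8, 1935.6, 1981.8, 3553.3 and 4208.6 with butyrate and 2247.8, 3847.7, 5532.9, 6714.1 and 8826.6 with aspirin, against 2561.9 and 2703.2 in untreated cells. Both series climbed at each time, with slopes of 0.36 ± 0.09 (limma adjusted p = 0.0416) and 0.54 ± 0.09 (0.0264), which did not differ by the test (−0.19 ± 0.12, 0.479). The difference between the drugs was −0.98 ± 0.15 (0.0114). The calls between the drugs were lost in 8 and 6 of 10 fits that left out an array (p up to 0.0679 and 0.0587) and without the time block (0.104 and 0.0925). The butyrate slopes were lost without the butyrate 2, 16 or 24 h array on both probe sets, and on X94185cds_s_at in 9 of 10 fits in all (p up to 0.146 and 0.189). Its aspirin slope was lost in 5 of 10 (p up to 0.139).

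**Figure D4:**
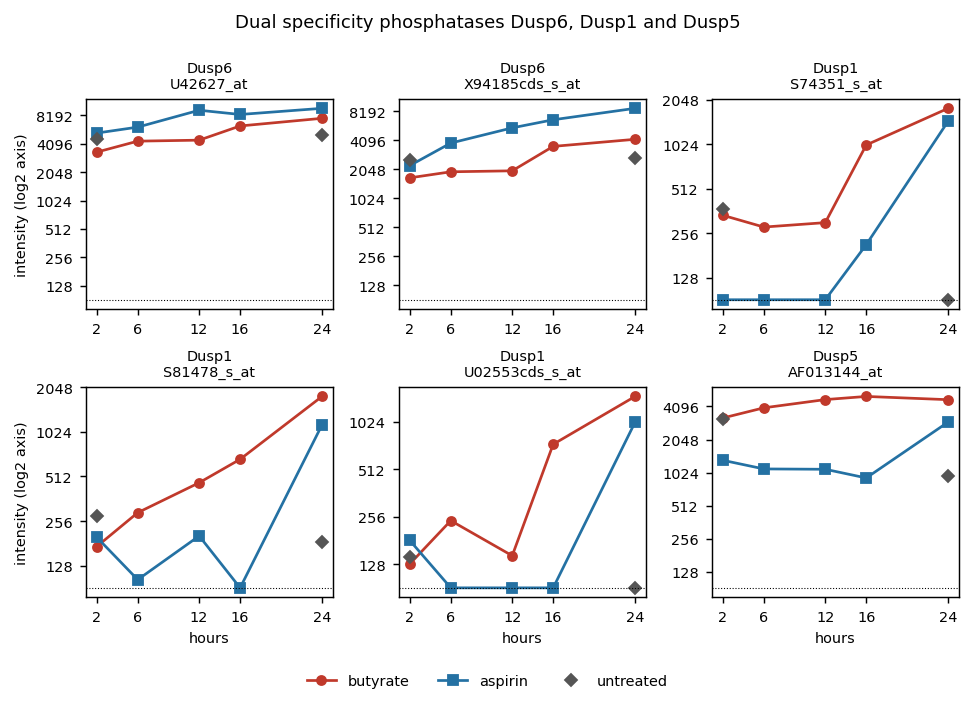
Intensity (vertical axes, log2 scale, values under the dotted floor drawn on it) against hours (horizontal axes) for the probe sets of Dusp6, Dusp1 and Dusp5, with 1 point per array for butyrate, aspirin and untreated cells. Dusp6 climbs with both drugs, Dusp1 is highest at 24 h with both, and Dusp5 is above aspirin with butyrate at every hour while its untreated arrays differ (3167.6 and 946).

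Dusp5, a nuclear phosphatase of ERK, read 3217.5, 3983.2, 4734.6, 5058.8 and 4725.2 with butyrate and 1323.3, 1104.1, 1096.1, 913.5 and 2954.1 with aspirin, against 3167.6 and 946 in untreated cells. All butyrate arrays exceeded all others, the 2 h one by little over untreated cells of that hour. Butyrate exceeded aspirin by 1.68 ± 0.27, or 3.2-fold (limma adjusted p = 0.0119), and the change against untreated cells, 1.31 ± 0.45, was not called (0.0751). The call was lost without any of the 6, 12 or 16 h arrays of either drug (p up to 0.0592).

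Dusp1, the phosphatase MKP-1 of all 3 MAP kinase arms and an immediate-early gene, was highest at 24 h with both drugs on its 3 probe sets. S74351_s_at read 338.7, 282, 302.2, 1012.7 and 1792.7 with butyrate and 66.8, 38.9, 80.2, 214.4 and 1466.8 with aspirin, against 372.6 and 36.5 in untreated cells. Up to 12 h the aspirin arrays were at the floor, and at 24 h both drugs had their highest value. The log2 difference from aspirin, with those 3 aspirin arrays set at the floor, was 1.56 ± 0.31 (limma adjusted p = 0.0206), and with 2 times the floor it was 0.96 and not called (0.174). The call was also lost without the time block (0.206) and in 6 of 10 fits that left out an array (p up to 0.081). On the other probe sets, S81478_s_at and U02553cds_s_at, the difference was 1.20 (0.0951) and 1.03 (0.175), and at 24 h they read 1770.1 and 1486.1 with butyrate and 1138.5 and 1020.2 with aspirin, against 184.1 and −201.8 in untreated cells. No slope of Dusp1 was called. Dusp7 was close to the floor and Dusp4 below the filter.

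Among the non-receptor tyrosine phosphatases, Ptpn1 was called against untreated cells on 4 of 5 probe sets and against aspirin on those 4. M33962_g_at read 5507.2, 5771.6, 6184.1, 5521.3 and 5740.2 with butyrate and 2486, 2227.8, 1881.9, 2055.8 and 3072.5 with aspirin, against 2450.2 and 2159.3 in untreated cells. All butyrate arrays were above all others from 2 h on, and aspirin lay around untreated cells. The log2 means were 12.49 ± 0.07 with butyrate (SD, n = 5) and 11.17 ± 0.13 in untreated cells (n = 2), a 2.5-fold rise (limma adjusted p = 0.00121). Butyrate exceeded aspirin by 1.31 ± 0.13 (0.0056), and the butyrate slope was flat at 0.02 ± 0.08 (0.979).

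On rc_AI113289_s_at Ptpn1 read 1285.5, 1881.3, 1859.9, 1761.4 and 1680.6 with butyrate and 402.8, 780.2, 638.4, 633.9 and 685.1 with aspirin, against 469.3 and 624.2 in untreated cells. Butyrate was again above every other array. It rose by 1.63 ± 0.28, or 3.1-fold, over untreated cells (limma adjusted p = 0.00385) and exceeded aspirin by 1.45 ± 0.13 (0.00461). These 2 probe sets remained called against untreated cells whichever array was left out (1.23 to 1.41 and 1.43 to 1.84) and under all other settings of the 12 arrays. When only arrays of 2 and 24 h were fitted, blocked by hour, 0 probe sets of Ptpn1 were called, as were 0 of all 6118.

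M33962_at of Ptpn1 read 949.1, 1021.6, 1334.1, 1001.1 and 1098.9 with butyrate and 297.2, 254.9, 229.1, 340.5 and 503.7 with aspirin, against 396.7 and 431.7 in untreated cells. Its rise of 1.37 ± 0.32 (limma adjusted p = 0.0165) was lost without the untreated 2 h array (0.0761) or the untreated 24 h one (0.0519) and with time as a factor (0.0516). On rc_AI180145_s_at Ptpn1 read 391.2, 459.3, 439.7, 608.2 and 539 with butyrate and 129.6, 227.1, 238.9, 198.5 and 190.1 with aspirin, against 128.6 and 228.4 in untreated cells. Its rise of 1.49 ± 0.34 (0.0157) was lost without the untreated 2 h array (0.112) and with time as a factor (0.0628), and its excess over aspirin, 1.32 ± 0.20 (0.0104), without a 16 h array of aspirin (0.0542) or butyrate (0.0531). On both, the butyrate arrays were above all others.

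The fifth probe set of Ptpn1, rc_AI112391_s_at, went its own way. It read 423.5, 826.5, 636.5, 603.3 and 685.5 with butyrate and 505.5, 446.6, 495.7, 627.5 and 409.1 with aspirin, against 601.9 and 667.9 in untreated cells. The groups overlapped, and the change against untreated cells was −0.03 ± 0.30 (limma adjusted p = 0.974). Probe sets M33962_at and M33962_g_at carry the same target name, so the 4 that rose stand for 3 targets.

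**Figure D5:**
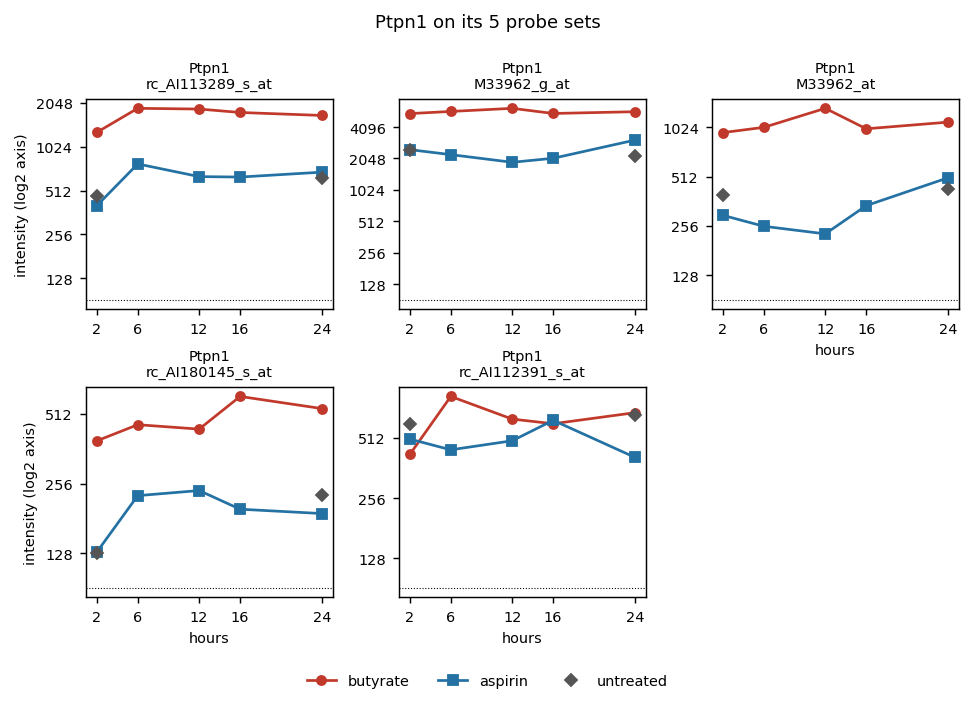
Intensity (vertical axes, log2 scale) against hours (horizontal axes) for the 5 probe sets of Ptpn1, with 1 point per array for butyrate, aspirin and untreated cells. On 4 of the 5 every butyrate point lies above every other point, and on rc_AI112391_s_at the groups overlap.

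Of the other non-receptor phosphatases, Ptpn2, Ptpn3 and Ptpn21 were lower with butyrate than with aspirin on 1 probe set each, while over the 16 tested probe sets of the class, Ptpn1 included, 11 differences were above 0 and the median was 0.37. Ptpn2, the phosphatase TC-PTP and closest relative of Ptpn1, read 701.7, 561.2, 764.5, 726.5 and 757.7 with butyrate and 1348.6, 1183.2, 1321.2, 1071.4 and 810.7 with aspirin, against 1031.2 and 1002.7 in untreated cells. All butyrate arrays lay below all others. The difference from aspirin was −0.69 ± 0.18 (limma adjusted p = 0.0392) and that from untreated cells, −0.54 ± 0.25, was not called (0.172). The call was lost in 8 of 10 fits that left out an array (p up to 0.123).

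Ptpn21, a phosphatase with a membrane-cytoskeleton domain, read 286.5, 398.8, 315.3, 437.1 and 392.9 with butyrate and 670.4, 597.2, 598.5, 519.9 and 727.9 with aspirin, against 503.9 and 721.9 in untreated cells. Here too the butyrate arrays were all below the rest, with a difference from aspirin of −0.77 ± 0.20 (limma adjusted p = 0.0384) that was lost without any 1 of the 10 arrays (p up to 0.12). Ptpn3 differed from aspirin by −1.07 ± 0.28 on rc_AA799812_at (limma adjusted p = 0.0389), where 4 of 5 butyrate arrays were set at the floor. It read 151.8, 79.3, 79.7, 85.1 and 33.5 with butyrate and 149.2, 150.6, 237.5, 265.7 and 298 with aspirin. Untreated cells read 245.6 at 2 h and 70.1 at 24 h, the latter also under the floor. The call was lost in 8 of 10 fits (p up to 0.131) and with 2 times the floor (−0.33, 0.225). The other probe set of Ptpn3 differed by −0.51 (0.113).

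Ptpn6, the phosphatase SHP-1 of blood and epithelial cells, was tested on 1 of 2 probe sets and read 207.2, 539.3, 770.7, 738.8 and 818.6 with butyrate and 257.5, 66.5, 206.1, 45.8 and 334.3 with aspirin, against 212.3 and 250.2 in untreated cells. From 6 h the butyrate arrays lay above all others, without a call against aspirin (1.69 ± 0.50, limma adjusted p = 0.0532) or untreated cells (1.26 ± 0.60, 0.179). Ptpn11, the phosphatase SHP-2 that growth factor receptors need to activate RAS, had 5 probe sets, of which 1 passed the filter through 2 arrays and none was called. Ptpn18 read 474.1 to 656.5 with butyrate and 344.7 to 641.4 with aspirin, against 257.7 and 303.1 in untreated cells, so both drugs lay above untreated cells without a call (0.96, 0.058 and 0.77, 0.404). Ptpn7 and Ptpn12 were above aspirin with butyrate at each hour and Ptpn23 at 4 of 5 hours, and neither these nor Ptpn5 were called.

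Among the receptor phosphatases, Ptpra, which activates SRC family kinases, was higher with butyrate than with aspirin at each hour on both probe sets. L01702_at read 471.6, 471.6, 765.1, 587.8 and 614.2 with butyrate and 305.6, 208.6, 601.5, 341.4 and 420.3 with aspirin, against 467.5 and 277.4 in untreated cells. The differences were 0.70 ± 0.19 (limma adjusted p = 0.0426) and, on U57500_s_at, 0.67 ± 0.19 (0.0494). The first was lost without any 1 of the 10 arrays (p up to 0.12) and the second in 8 of 10 such fits (p up to 0.147). Both were lost under 5 of 7 other settings, and with median centring the differences were 0.39 (0.21) and 0.36 (0.223).

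Ptprr, a phosphatase that binds ERK and p38 and is known from neurons, read −29.3, 56.9, 147.9, 289 and 380.2 with butyrate, and was at the floor on every aspirin and untreated array. It was higher at each time from 12 h on. It passed the filter through the butyrate arrays alone, and its log2 size is set by the floor, so no test of it is given. The neural markers given beside the JNK scaffolds apply here as well.

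Ptprf, the adhesion phosphatase LAR of epithelia, was level throughout. It read 3798.4, 3475.6, 4003.8, 3313.3 and 3873.6 with butyrate and 3402.9, 3037, 3338.6, 3430.1 and 3346.1 with aspirin, against 3965.9 and 3013.9 in untreated cells. The changes were 0.09 ± 0.16 with butyrate (limma adjusted p = 0.755) and −0.06 ± 0.16 with aspirin (0.941). Ptprc, the leukocyte phosphatase CD45, was at the floor on all arrays on 2 of its 3 probe sets, while M25823_s_at read 212.7 to 323.3 with butyrate and 46.4 to 388.3 with aspirin, against 153.8 and 347.1, without a call. Ptprg was below untreated cells on every butyrate array, at 248.8 to 302.4, against 723.1 and 397.9, and was not called (−0.96, 0.107). Of 18 receptor phosphatase genes, Ptpra alone was called in any fit, apart from the slope of Ptprr.

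The 21 member probe sets that were not tested cover, among others, 9 genes with no tested probe set, Dusp4, Map2k6, Map3k8, Ptprd, Ptprh, Ptprj, Ptprn, Ptprq and Ptpru. Of the 21, 19 were at the floor on all arrays. Mean log2 values of the members nearest the filter were 6.55 inside and 6.52 outside, so this cutoff divides values that are all close to the floor. Of the tested members, 50 were above the floor on all arrays.

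Genes of the same signalling system outside the families were read from 3 lists, by the brightest probe set of each gene. Of RAS and RAF genes upstream of MAP kinases, 25 were on the array and 22 tested. Of the 22, 1 rose and 2 fell with butyrate against untreated cells (median −0.15), where 7.78 and 3.92% of all probe sets did. Aspirin against untreated cells gave 0 calls (median −0.28), with 0.0817% of all probe sets called higher and 0.0654% lower. Pak1, a kinase that small GTPases activate, read 204.7, 414.5, 410.6, 488.2 and 349.1 with butyrate and was at the floor on both untreated arrays, a rise of at least 1.98 ± 0.30 (limma adjusted p = 0.00177). The 14-3-3 proteins Ywhae and Ywhah, which hold RAF kinases, fell by 0.69 ± 0.15 (0.0135) and 0.72 ± 0.16 (0.0136). Against aspirin 5 genes were higher with butyrate, Rap1b, Grb2, Rac1, Pak1 and another 14-3-3 gene, Ywhab, while Ywhae and Ywhah were lower.

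Of kinases and transcription factors downstream of MAP kinases, 24 were on the array and 23 tested. With butyrate against untreated cells 5 rose and 2 fell (median 0.15), and with aspirin 1 rose (median 0.06). Egr1, an immediate-early factor that ERK induces, read 9975.7, 12519.9, 12487.7, 11818.4 and 13947.7 with butyrate and 8291.2, 4697.5, 4917.8, 7551 and 7851.1 with aspirin, against 2653.5 and 2582.5 in untreated cells. It rose with both drugs, by 2.21 ± 0.22 (limma adjusted p = 0.000291) with butyrate and 1.31 ± 0.22 (0.036) with aspirin. Its aspirin call was lost with quantile normalization, median centring or time as a factor, where 0 of all probe sets were called. Its relative Egr2 rose by 1.71 ± 0.33 (0.00668) with butyrate, as did Fos and the p38 pathway target Hspb1, and Max, which passed the filter through the butyrate arrays alone, is also among the 5, while Fosl1, a partner of the JUN factors, fell by 2.04 ± 0.50 (0.0208) and Myc fell as well. Of 26 tested genes among other protein phosphatases (29 on the array), 0 rose and 2 fell with butyrate against untreated cells (median −0.07), the catalytic subunit Ppp1cc by 0.74 ± 0.22 (0.0433) and the mitochondrial phosphatase Ptpmt1 by 1.93 ± 0.57 (0.0434). With aspirin 0 of the 26 were called against untreated cells (median −0.23). Against aspirin 3 of the 26 were higher with butyrate and 2 were lower. The higher ones were Ppm1b and the calcineurin subunits Ppp3ca and Ppp3r1, the latter by 1.06 ± 0.17 (limma adjusted p = 0.0119) and 1.19 ± 0.22 (0.0169). The lists' medians are to be read beside 0.00 over all probe sets for butyrate and −0.04 for aspirin. Their counts are to be read beside 7.78% of all probe sets that rose and 3.92% that fell with butyrate against untreated cells. For butyrate against aspirin 15.6% of all were higher and 9.61% lower, where 5 of the 23 downstream genes were higher and 4 lower. These shares are the background for the counts of the lists.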

How the data were processed

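Total RNA of CC531 cells was measured on 12 expression arrays, grouped by the sample titles. The deposited table holds 1 intensity per probe set and array, 8799 rows of which 59 are controls, and between 21.6 and 25.6% of the intensities on an array are below 0. Which software, background step and scaling the authors used is not given in the sources used here. The array means were equal after trimming, so no further normalization was applied. At most 0.114% of values were identical between 2 arrays.

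Genes were named from the platform annotation. All 56 member genes matched RefSeq by gene number, with 0 changed symbols, and 1 probe set naming a member together with another gene was left out. Intensities were raised to a floor, the absolute value of the 10th percentile (90.91), and turned into log2. The 2622 probe sets whose mean was under the 30th percentile of means (6.54) were left out. Tests used limma 3.58.1 in R 4.3.3 (lmFit, then eBayes with a variance trend). Each drug was compared with untreated cells on 12 arrays (9 residual degrees of freedom) and with the other drug on 10 arrays, with time as a block (4). A line over log2 hours for each drug was fitted to those 10 (6). "At least" marks a difference whose dimmer side lay at the floor on every array and whose brighter side did so on none. For 8 of the 82 tested members every array outside the butyrate group was at the floor, and no test of them is given singly. The scripts were tested on simulated data. The number of arrays limits the precision.

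Named members are those called in any fit, the 12 with the largest rise and the 12 with the largest fall in each treatment comparison, and, beside an item not reported here, Mapk3, Mapk8, Mapk9, Mapk10, Mapk14, Map2k1, Map2k2, Dusp1, Dusp5, Dusp6, Ptpn1, Ptpn6, Ptpn11 and Ptprc, with all their probe sets. The text gives values for a part of these. The members and lists were chosen with earlier results of these data known. Other floors, no filter, quantile normalization, median centring, no variance trend, time as a factor, the 2 and 24 h arrays alone, no time block, slopes over hours and leaving out each array were tried.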

Additional observations from a re-analysis of the deposited data

Results flagged for a closer look

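Slopes over the hours differed between butyrate and aspirin at 6 probe sets by a test of the difference itself (limma, adjusted p of 0.05 or less). Butyrate minus aspirin was 1.39 log2 per doubling of hours for Map4k1 (rc_AA891302_g_at). It was −0.96, −0.54, −1.01 and −0.87 for Mapkapk3 (rc_AA955477_at, rc_AA955477_g_at, rc_AI011376_at and rc_AI229421_at) and −0.87 for Mapk12 (X96488cds_at).

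One array stood far from the other 4 of its group at 10 of 142 groups of 5 arrays. Another 11 groups have 4 arrays at the floor, so that the ratio is 1 by construction. A rate of about 1 in 20 would hold for independent repeats. It does not apply to different hours with values at the floor, so the 10 are only described. Among them, the groups of Dusp1 and Dusp7 had 3 arrays at the floor and that of Mapk7 had 2. The measure is the gap to the nearest other array over the whole range of the group in log2, with a critical ratio of 0.71. The ratio was 0.929 and 0.784 for the 2 probe sets of Map2k5 (U37462_s_at and U37464_s_at, highest with butyrate at 2 h). For Map2k2 (L14936_at) it was 0.824 (highest with butyrate at 16 h, 1559.1) and 0.900 (lowest with aspirin at 2 h, 556.3). It was 0.714 for Dusp1 (U02553cds_s_at, highest with aspirin at 24 h), 0.923 for Dusp7 (butyrate 12 h), 0.790 for Mapk7 (AJ005424_at, butyrate 12 h, 784.3) and 0.723 for Ptpn2 (X58828_at, lowest with butyrate at 6 h). With aspirin at 6 h Ptprf (0.778) and Ptprz1 (U09357_at, 0.730) were lowest. The 11 groups with a ratio of 1 by construction were those of Map4k4 (butyrate 24 h, 143.2), Mapk8 (butyrate 16 h), Ptpn3 (butyrate 2 h), Ptpn5 (butyrate 24 h), Ptpre (D78610_at, butyrate 16 h), Ptpro (U28938_at, butyrate 6 h and aspirin 16 h), Ptprv (butyrate 16 h), Map4k1 (rc_AA891302_g_at, aspirin 24 h, 263.4), Ptpn11 (aspirin 6 h) and Ptprs (L11587_at, aspirin 2 h). The times of a group are not repeats of each other, so a far array can be a time that differs.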

How the results depend on the processing

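Of 8838 values of members recomputed under another setting or without an array, 8353 kept direction and side of the threshold, 93 gained a call, 0 reversed a called direction and the rest lost a call; 666 uncalled values changed sign. Counts of called members moved as follows. Butyrate against untreated (5) gave 8 with a floor of 45.455, 9 with median centring, 3 with time as a factor and 0 on the 2 and 24 h arrays alone. Aspirin against untreated (0) gave 1 without the filter. Butyrate against aspirin (25) gave 11 with 2 times the floor and 12 without the filter, and the slope with butyrate (11) gave 6 under each of these. The slope with aspirin (7) gave 0 with 2 times the floor, 1 without the filter and 3 with quantile normalization, and the difference of slopes (6) gave 2 under each of the first pair. Without 1 array the counts ranged over 3 to 15 (15 without butyrate 2 h, 3 without untreated 24 h), 0 to 3 (3 without untreated 24 h), 4 to 26, 2 to 12, 0 to 7 and 0 to 5, in that order of comparisons.

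Over all probe sets, butyrate against untreated (716) gave 322 with 2 times the floor, 358 without the filter, 317 with time as a factor and 0 on the 2 and 24 h arrays. Aspirin against untreated (9) gave 5 without the variance trend and 0 with quantile normalization, median centring, time as a factor or the 2 and 24 h arrays. Butyrate against aspirin (1540) gave 683 with 2 times the floor and 778 without the filter, and the slope with butyrate (550) gave 319 and 329. The slope with aspirin (101) gave 53 with 2 times the floor, 242 with a floor of 45.455, 258 with median centring and 230 over plain hours, and the difference of slopes (106) gave 49 with 2 times the floor, 37 without the filter and 70 over plain hours. Without 1 array these ranged over 310 to 1166, 1 to 306, 241 to 1645, 81 to 541, 6 to 231 and 3 to 119. The causes were not tested. No paired analysis by replicate number was possible because the labels give no shared numbers; the hour was the block between the drugs and on the 2 and 24 h arrays. Signal near the floor limits Map4k4, Mapk8ip1, Mapk8ip2, Ptprr and 1 probe set each of Map4k1, Mapk9, Dusp1 and Ptpn3, and calls of Mapk12 were lost with 2 times the floor.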
